A study of Rattus norvegicus with 16 samples.

Results

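The genes described here build, load, sense and clear the inhibitory transmitter GABA at synapses. They comprise 27 listed symbols: the synthesis and breakdown enzymes Gad1, Gad2 and Abat, the transporters Slc32a1 and Slc6a11, the chloride transporters Slc12a5 and Slc12a2, 11 GABA-A receptor subunits, the GABA-B receptor subunits Gabbr1 and Gabbr2 with the auxiliary proteins Kctd8, Kctd12 and Kctd16, and the scaffold, adhesion and trafficking genes Gphn, Nlgn2, Gabarap and Gabarapl1. Other genes of the pathway, among them further GABA-A subunits, are given as counts. Messenger RNA was sequenced from male Sprague Dawley rats, in hippocampus and in hypothalamus, and the animals were either untreated (control) or fed fructose for 6 weeks. Levels are FPKM, fragments per kilobase of transcript, scaled to the mapped fragments of the library, in 1 table per region. Hippocampus had 4 control and 4 fructose libraries, and hypothalamus had 4 control and 3 fructose libraries, since no column of the table matches fructose replicate 4. The age of the rats, the dose of fructose and its route are not given in the sources used here. Nor is it stated whether each sample is a separate rat, so the p-values measure the spread between samples only.

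Members were taken by symbol, at the locus with the highest mean FPKM where a symbol had several, and were tested in a region where that mean reached 1. Each table held 26 of the 27 symbols, out of 16223 symbols in hippocampus and 16183 in hypothalamus. Kctd12 was found in neither table and was not analysed here. In hippocampus 24 members passed the minimum, with Gabre and Gabrq below it, and in hypothalamus all 26 passed.

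As background, GABA is made from glutamate by the 2 glutamate decarboxylases, packed into vesicles by the transporter Slc32a1, and cleared by plasma membrane transporters into neurons and astrocytes, where the transaminase Abat breaks it down. GABA-A receptors are chloride channels of 5 subunits. The subunits chosen set where the receptor sits and how long its channel conducts, and the chloride gradient kept by Slc12a5 and Slc12a2 sets the sign of the current. GABA-B receptors are slow G-protein-coupled dimers of Gabbr1 and Gabbr2, and Kctd proteins bind Gabbr2 and shape the speed and fading of the response. In the hypothalamus many neurons that govern feeding and hormone release use GABA, whereas in the hippocampus it comes mainly from interneurons.

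The libraries matched their labelled regions. Summed FPKM of 8 hypothalamic markers, such as Pomc, Agrp and Hcrt, was 3620 to 7310 in hypothalamus controls and 3.13 to 8.17 in hippocampus controls. After fructose it was 2760 to 5910 in hypothalamus and 3.5 to 28.4 in hippocampus. The value of 28.4 was that of replicate 1, with Pomc at 15.1, and its part in the members' values was not tested. For 6 markers of excitatory neurons the sums were 142 to 215 in hypothalamus controls and 1770 to 2640 in hippocampus controls. Camk2a and Slc17a7 weighed most in hippocampus. Within that list Slc17a6 alone lay higher in hypothalamus, at 21.7 to 83.6 in its controls against 4.83 to 7.19 in hippocampus controls. The sums thus do not measure excitatory neurons as a whole. Among the hippocampal markers, Fibcd1 was listed at 0 in both tables. The sum of FPKM per library ranged from 353703 to 402099 (hippocampus) and from 435105 to 492778 (hypothalamus), and read depth is unknown because the tables hold no counts.

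The replicate 1 libraries stood apart in both regions. On log2(FPKM + 1) the 2 replicate 1 libraries of hippocampus correlated at 0.985 with each other and at 0.84 to 0.896 with the others, which among themselves reached 0.934 to 0.979. In hypothalamus the same figures were 0.98, 0.88 to 0.909 and 0.956 to 0.979. These correlations run over genes within the tables and describe the libraries only. A second trait of the same libraries touches several members. Some symbols have 2 loci, of which 1 is numbered among genes of its own strand and the other among genes of the opposite strand (strands from RefSeq, 15 numbered loci on each side). Over 694 such symbols in hippocampus, the locus among opposite-strand genes held a median 1.39% to 1.4% of the summed FPKM in the replicate 1 libraries and 25.2% to 34.1% in the others. Over 572 such symbols in hypothalamus it held 5.16% to 6.37% and 27.7% to 30.7%. What made the replicate 1 libraries differ was not tested.

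Slc12a5, the potassium-chloride exporter that keeps chloride low in mature neurons, shows this most clearly. Its higher locus in hippocampus, among opposite-strand genes, read 6.14, 327, 265 and 394 FPKM in controls and 40.1, 307, 296 and 394 after fructose, in the order of replicates 1 to 4. Its other locus read 166, 58.6, 62.7 and 45.6 in controls and 163, 55.0, 72.3 and 58.7 after fructose. The replicate 1 libraries were thus the lowest at the first locus and the highest at the second, in both groups. Gabrb2, a beta subunit of the GABA-A receptor, did the same in hypothalamus: its higher locus was listed at 0 in both replicate 1 libraries and at 29.0 to 49.9 in the other 5, while its second locus was at 42.0 and 38.3 in the replicate 1 libraries and at 5.39 to 9.84 in the others. Gabbr2 in hypothalamus and Slc12a2 in hippocampus also have a locus of each kind above 1 FPKM, as has Gabbr1 in hypothalamus. For these 5 cases values summed over both loci are given beside those of the higher locus. Nlgn2 has a single locus in the hypothalamus table, among opposite-strand genes, at 0.584 to 3.56 FPKM, and its level there cannot be set against hippocampus.

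**Figure D1:**
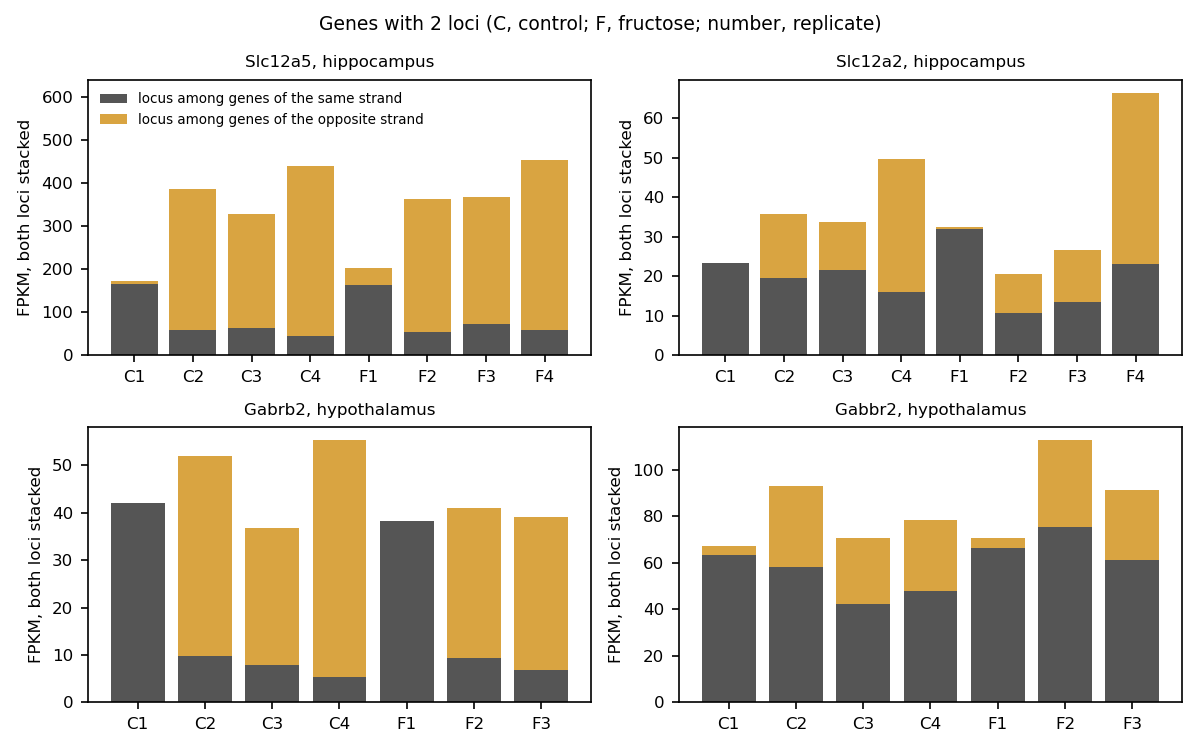
FPKM of both loci stacked for 4 members with 2 loci, one bar per library (C, control; F, fructose; number, replicate; vertical axes linear from 0). The share from the locus among opposite-strand genes is near 0 for Slc12a2 and Gabrb2 in the replicate 1 bars, low there for Slc12a5 and Gabbr2, and larger in each of the other libraries.

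Control libraries were first set side by side to see which parts of the GABA system each region carries. The tables were made separately, so no test was run, and members are described by whether the 4 control libraries of each region overlap. In 15 of 26 members they did not overlap, with 9 higher in hypothalamus, where 34.0% of all 10844 symbols lay without overlap, and 6 lower, where 17.6% did; Nlgn2, whose hypothalamus locus lies among opposite-strand genes, is 1 of the 6. The members' share without overlap is thus close to that of all symbols. The direction of those counts depends on scale: as deposited, 3688 symbols lay higher and 1911 lower in hypothalamus, but 2454 and 3033 after division by the library sum, and among members 8 and 9. The median log2 difference of all symbols, hypothalamus over hippocampus, was 0.20, and that of the members was 0.25.

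Synthesis, breakdown and transport genes lay higher in hypothalamus. Gad2, the decarboxylase of nerve terminals, read 38.9, 49.8, 61.1 and 27.2 FPKM in hippocampus controls and 159, 128, 153 and 151 in hypothalamus controls, a 3.35-fold ratio of means. Gad1, the decarboxylase found throughout the neuron, read 57.1, 69.9, 88.6 and 57.5 against 90.1, 120.5, 147.5 and 176, a 1.96-fold ratio, and its lowest hypothalamus library only just passed the highest of hippocampus. After division by the library sum the Gad1 ratio was 1.6-fold and its groups overlapped, whereas the Gad2 groups, at 2.74-fold, did not. Slc32a1, the vesicular GABA transporter, read 40.5, 31.9, 55.5 and 24.5 against 43.3, 78.5, 79.7 and 97.3. Its ratio was also 1.96-fold, but hypothalamus replicate 1 lay inside the hippocampus range. Slc6a11, the GABA transporter of astrocytes, differed most in this group, with 37.0, 43.6, 56.1 and 24.8 against 173, 305, 231 and 272, a 6.08-fold ratio and 4.96-fold after scaling. Abat stood at 65.4 ± 11.6 in hippocampus and 117 ± 11.8 in hypothalamus (SD, n = 4 each), a 1.79-fold ratio without overlap.

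The marker lists moved with part of this. Summed FPKM of 12 interneuron markers was 346 to 423 in hippocampus controls and 672 to 816 in hypothalamus controls, beside the Gad1, Gad2 and Slc32a1 values. Sst weighed most in that sum, and Vip and Reln lay lower in hypothalamus; the part of these cells in the difference was not tested. The astrocyte list of 6 genes summed to 1170 to 1590 in hippocampus controls and 1000 to 1350 in those of hypothalamus, and no marker of it was at 0. Aqp4 (64.6 to 95.4 against 150 to 292) and Aldh1l1 (15.3 to 24.5 against 40.5 to 70) lay higher in hypothalamus, as Slc6a11 did. Slc1a2 (496 to 787 against 135 to 270), which weighs most in the hippocampus sums, and Gja1 (171 to 202 against 118 to 160) lay lower. These markers did not overlap between regions, whereas Gfap and Slc1a3 did. The part of astrocytes in the Slc6a11 difference was not tested. In tissue samples such as these, fewer cells of a type and less RNA per cell cannot be told apart.

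**Figure D2:**
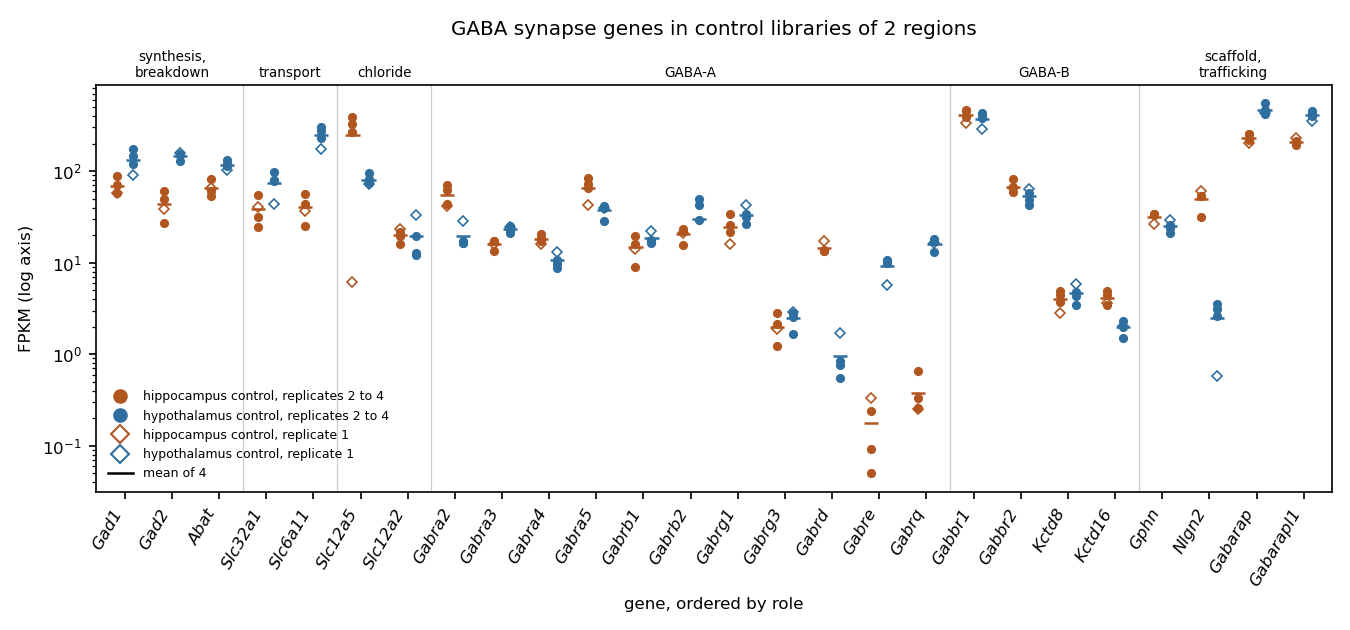
FPKM (log axis) of 26 members in each control library of hippocampus (brown) and hypothalamus (blue), in order of role; open diamonds are replicate 1 libraries and bars the means of 4, and the value of 0 of Gabrb2 in hypothalamus replicate 1 is not drawn. Gabre and Gabrq are near or below 1 FPKM in hippocampus alone, and Gabrd in hypothalamus alone.

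GABA-A subunits gave the widest range. Gabre, the epsilon subunit, read 0.334, 0.0504, 0.24 and 0.093 in hippocampus controls and 5.77, 9.97, 10.8 and 10.5 in hypothalamus controls, a 51.5-fold ratio. Gabrq, the theta subunit, read 0.252, 0.256, 0.662 and 0.333 against 16.5, 17.1, 18.1 and 13.0, a 43.1-fold ratio. Neither set of libraries came near the other. Gabrd, the delta subunit of receptors outside the synapse, went the other way: 17.3, 13.4, 13.5 and 13.6 in hippocampus and 1.71, 0.544, 0.763 and 0.837 in hypothalamus, 15-fold higher in hippocampus. After division by the library sum the first pair stood at 41.4-fold and 35.4-fold higher in hypothalamus. Hippocampal levels of Gabre and Gabrq lay under the minimum used for testing, and no error of depth can be put on them.

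The windows 250 bases upstream of the starts of these 3 genes are shown because the genes have the largest regional ratios among members whose loci are not numbered among opposite-strand genes. They come from RefSeq, build GRCr8, read 5′ to 3′ on the strand of the gene, with capitals marking matches to the GC box GGGCGG, to CCAAT or to TATAAA on either strand. Gabrd lies at chr5:171252710-171252959 on the minus strand, Gabre at chrX:155120722-155120971 on the minus strand and Gabrq at chrX:155738186-155738435 on the plus strand.
Gabrd: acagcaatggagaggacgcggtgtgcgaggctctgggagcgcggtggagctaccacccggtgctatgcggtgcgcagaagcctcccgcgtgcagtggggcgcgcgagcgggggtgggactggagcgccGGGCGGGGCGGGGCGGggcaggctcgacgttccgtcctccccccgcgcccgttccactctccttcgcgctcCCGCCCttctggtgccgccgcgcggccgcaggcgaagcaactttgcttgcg
Gabre: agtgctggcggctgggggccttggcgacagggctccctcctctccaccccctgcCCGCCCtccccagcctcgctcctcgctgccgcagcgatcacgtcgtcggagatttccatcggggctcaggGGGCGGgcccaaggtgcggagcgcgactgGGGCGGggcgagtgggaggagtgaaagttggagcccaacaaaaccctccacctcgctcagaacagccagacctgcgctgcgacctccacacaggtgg
Gabrq: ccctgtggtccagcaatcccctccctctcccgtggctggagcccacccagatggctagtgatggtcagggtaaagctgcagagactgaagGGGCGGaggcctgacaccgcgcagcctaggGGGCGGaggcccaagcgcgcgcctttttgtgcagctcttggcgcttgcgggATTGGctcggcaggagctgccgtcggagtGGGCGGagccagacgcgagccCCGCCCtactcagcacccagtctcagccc
The Gabrd window holds 4 matches to the GC box, some of which overlap, and none to the other motifs. Gabre holds 3 GC boxes, and Gabrq holds 4 and 1 CCAAT match. Over the 24 members with a window in the table, Kctd12 included, 18 hold a GC box, against 30.5% of all 33469 windows of this length. CCAAT was found in 7 members and 34.0% of all windows, and TATAAA in 3 members and 12.9%. CG dinucleotides number 35 in the Gabrd window, 20 in that of Gabre and 17 in that of Gabrq, against a median of 5. Gabrd on the one side and Gabre and Gabrq on the other, with opposite regional levels, thus all hold GC boxes in these windows.

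Among alpha subunits, Gabra2 read 41.2, 61.8, 70.5 and 43.6 FPKM in hippocampus controls and 28.6, 17.1, 16.4 and 16.2 in hypothalamus controls, 2.77-fold higher in hippocampus without overlap. Gabra5, an alpha subunit abundant in hippocampal pyramidal cells, read 42.7, 84.5, 64.7 and 71.7 against 39.9, 41.1, 39.9 and 28.7. That is a 1.76-fold ratio, and hippocampus replicate 1 lay just above the hypothalamus range. Gabra4 was 1.72-fold higher in hippocampus, at 18.2 ± 1.94 against 10.6 ± 1.95, and Gabra3 was 1.46-fold higher in hypothalamus, at 23.4 ± 2.04 against 16.0 ± 1.74 (SD, n = 4 each). In these 2 genes as well the regions did not overlap, as deposited or after scaling. The mixture differed accordingly. Of the summed FPKM of these 4 alpha subunits, Gabra5 made up 42.4% ± 5.76 in hippocampus and 41.2% ± 4.58 in hypothalamus, Gabra2 made up 35% ± 5 and 21.3% ± 3.95, Gabra3 10.6% ± 2.11 and 25.9% ± 2.64, and Gabra4 12% ± 1.62 and 11.6% ± 1.17. The second most abundant of the 4 was thus Gabra2 in hippocampus and Gabra3 in hypothalamus, and shares of Gabra5 and Gabra4 differed by less than their SD.

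Beta and gamma subunits overlapped between regions: Gabrb1 at 14.7 ± 4.44 and 18.4 ± 2.61, Gabrg1 at 24.5 ± 7.7 and 33.6 ± 6.79, and Gabrg3 at 2.01 ± 0.648 and 2.47 ± 0.557 FPKM in hippocampus and hypothalamus. Gabrb2 was 1.47-fold higher in hypothalamus at its higher locus, with overlap, and 2.26-fold higher without overlap once both loci were summed. By RefSeq chromosome, the subunit genes fall into groups whose members need not go the same way. On chromosome X, Gabre, Gabra3 and Gabrq all lay higher in hypothalamus. On chromosome 14, Gabra2 and Gabra4 lay lower while Gabrb1, Gabrg1 and Kctd8 overlapped, and on chromosome 1, Gabra5 lay lower while Gabrg3 overlapped.

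Gabbr1 was among the most abundant members, and the GABA-B auxiliary proteins among the least. Gabbr1, the ligand-binding subunit, read 332, 469, 450 and 394 in hippocampus controls and 290, 428, 382 and 397 in hypothalamus controls, and Gabbr2, which couples to the G protein, 65.1, 81.2, 66.3 and 58.4 against 63.2, 58.1, 42.4 and 47.8. Both overlapped as deposited. After division by the library sum both lay lower in hypothalamus without overlap, at 0.743 and 0.636 of the hippocampus level, while summing loci, unscaled, put Gabbr1 at 0.949 and Gabbr2 at 1.14 with overlap. Kctd16 read 3.64, 4.48, 4.88 and 3.48 in hippocampus and 2.04, 1.51, 1.99 and 2.31 in hypothalamus, 2.1-fold higher in hippocampus without overlap. Kctd8, a related auxiliary protein, stood at 3.96 ± 0.906 and 4.61 ± 0.981 (SD, n = 4 each) with overlap, at loci that lie among opposite-strand genes in both tables although their replicate 1 values are not low throughout.

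The remaining members divide by role as well. Gabarap, which helps carry GABA-A receptors to the surface and belongs to the autophagy-related ubiquitin-like family, was at 232 ± 27.2 in hippocampus and 467 ± 60.5 in hypothalamus, and its relative Gabarapl1 at 208 ± 17.5 and 407 ± 43.8. Their ratios were 2.01-fold and 1.96-fold, without overlap in either. Gphn, the gephyrin scaffold that anchors receptors at the inhibitory synapse, was at 31.8 ± 3.62 and 24.9 ± 3.47, overlapping as deposited and lower in hypothalamus without overlap after scaling. Slc12a5 was 3.09-fold higher in hippocampus at its higher locus, with overlap through the replicate 1 library at 6.14, and lay without overlap in the same direction when loci were summed. Slc12a2, the sodium-potassium-chloride importer, was at 20.2 ± 3.11 and 19.4 ± 9.82, with hypothalamus replicate 1 at 33.2 above the other 3 at 12 to 19.4, and at 0.544 of the hippocampus level with loci summed, still overlapping.

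Fructose was then compared with control in hippocampus, to ask whether feeding moved any of these genes. With limma on log2(FPKM + 1) and Benjamini-Hochberg adjustment over all 11385 tested loci, 0 of 24 members passed an adjusted p of 0.05, and 0% of all loci did. At an unadjusted p under 0.05 there was 1 member, Kctd16, against 0.808% of all loci. Of the members 10 had positive and 14 negative log2 fold changes, with a median of -0.03, where the median of all loci was -0.004 and 48.6% were positive. Groups did not overlap for 1 member, which lay higher after fructose, as did 0.255% of all loci, and for no member that lay lower, where 0.413% of all loci did.

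That gene was Kctd16, whose protein binds Gabbr2 and alters the kinetics of GABA-B signalling. It read 3.64, 4.48, 4.88 and 3.48 FPKM in controls and 5.69, 5.03, 5.79 and 5.61 after fructose. The highest control, replicate 3, lay just below the lowest fructose library, replicate 2. Means were 4.12 ± 0.672 and 5.53 ± 0.341 (SD, n = 4 each), a log2 fold change of 0.36 ± 0.12 (SE) with an unadjusted p of 0.0183 and a limma adjusted p of 1.00. The percentile of Kctd16 among symbols at a mean FPKM of at least 1 was 17.9 to 26.1 in controls and 26.3 to 30.4 after fructose, so the gene is a low one in every library. Leaving out both replicate 1 libraries gave 0.30 with an unadjusted p of 0.0867, still without overlap. With array weights the value was 0.23 with an unadjusted p of 0.0655, and the members under 0.05 were Gad2 and Gad1, where 5.78% of all loci were. Its partners did not pass the test: Gabbr1 was at -0.08 ± 0.16, Gabbr2 at 0.07 ± 0.13 and Kctd8 at -0.05 ± 0.16.

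**Figure D3:**
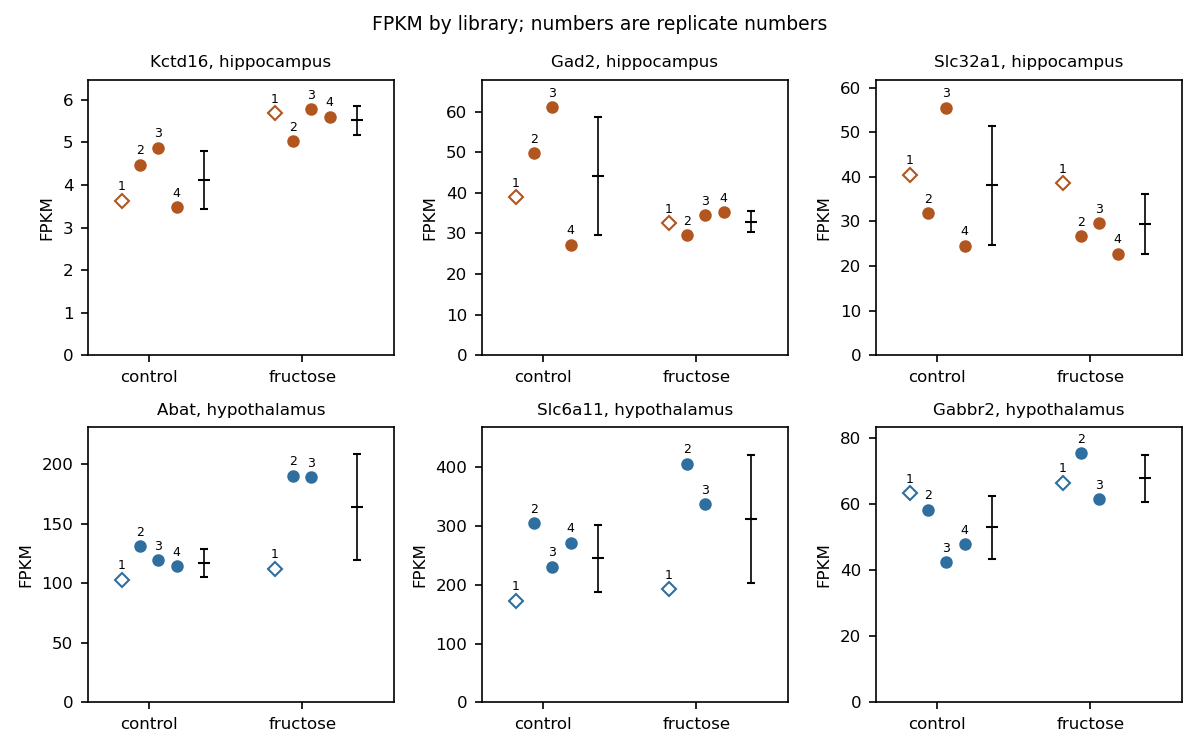
FPKM in each library (points with replicate numbers; open diamonds are replicate 1) with the mean and SD of each group beside them, for 3 members in hippocampus (upper row) and 3 in hypothalamus (lower row); vertical axes start at 0. Kctd16 is separated by group, at most 4.88 in controls and at least 5.03 after fructose, while in the other 5 panels the groups overlap.

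After Kctd16, Gad2 and Slc32a1 had the smallest unadjusted p-values in hippocampus, with negative fold changes. Gad2 read 38.9, 49.8, 61.1 and 27.2 in controls and 32.5, 29.5, 34.4 and 35.3 after fructose. The fructose libraries lay close together, and the spread came from controls, with replicate 3 the highest and replicate 4 the lowest of all 8. Its log2 fold change was -0.36 ± 0.23 (SE) with an unadjusted p of 0.152. Slc32a1 read 40.5, 31.9, 55.5 and 24.5 in controls and 38.5, 26.7, 29.7 and 22.7 after fructose, at -0.33 ± 0.26, and Gad1 was at -0.14 ± 0.16. Without control replicate 4, Gad2 had an unadjusted p of 0.0094 and its groups did not overlap, so this library decided that value. Interneuron markers summed to 346 to 423 in controls and 233 to 413 after fructose, with fructose replicate 4 the lowest; their part was not tested.

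Other hippocampal members stayed within the spread of the libraries. Among GABA-A subunits 5 were positive and 4 negative, from -0.14 for Gabrg3 to 0.24 ± 0.21 (SE) for Gabrd. Gabrd read 17.3, 13.4, 13.5 and 13.6 in controls and 13.6, 16.2, 26.9 and 14.5 after fructose, so its mean rested on fructose replicate 3. Alpha subunit shares after fructose were 42.1% for Gabra5, 35% for Gabra2, 11.6% for Gabra3 and 11.3% for Gabra4, each within 1 SD of the control share. Abat was at 0.00 ± 0.15, Slc6a11 at -0.08 ± 0.24, Gabarap at -0.05 ± 0.19, Gabarapl1 at -0.12 ± 0.11, Gphn at -0.01 ± 0.14 and Nlgn2 at 0.03 ± 0.20. Gabrb1, whose value in fructose replicate 1 has a status other than OK in the table, was at -0.01 ± 0.20. Slc12a5 was at 0.65 ± 1.34 at its higher locus and 0.09 ± 0.32 with loci summed. Slc12a2 was at -0.13 ± 0.31 and -0.06 ± 0.34.

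The median of the hippocampal members changed with single libraries. Control replicate 3 was the highest library for 10 of 24 members (Abat, Gabra2, Gabrb1, Gabrg1, Gabrg3, Gad1, Gad2, Kctd8, Slc32a1 and Slc6a11), against 10.5% of all symbols, and control replicate 4 was the lowest for 9, against 16.9%. Without control replicate 3 the members had 15 positive and 9 negative values and a median of 0.05. Without fructose replicate 2 they had 14 and 10 and a median of 0.005. The median moved the other way, to -0.09 without control replicate 1 (7 positive, 17 negative), -0.09 without control replicate 4 (8 and 16), -0.08 without fructose replicate 4 (7 and 17) and -0.14 with array weights (5 and 19). The lean of the members in hippocampus was thus not stable in size or sign. Meningeal markers summed to 444 in control replicate 4 and 44.6 in control replicate 3, the highest and lowest of the controls; their part in the members' values was not tested.

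**Figure D4:**
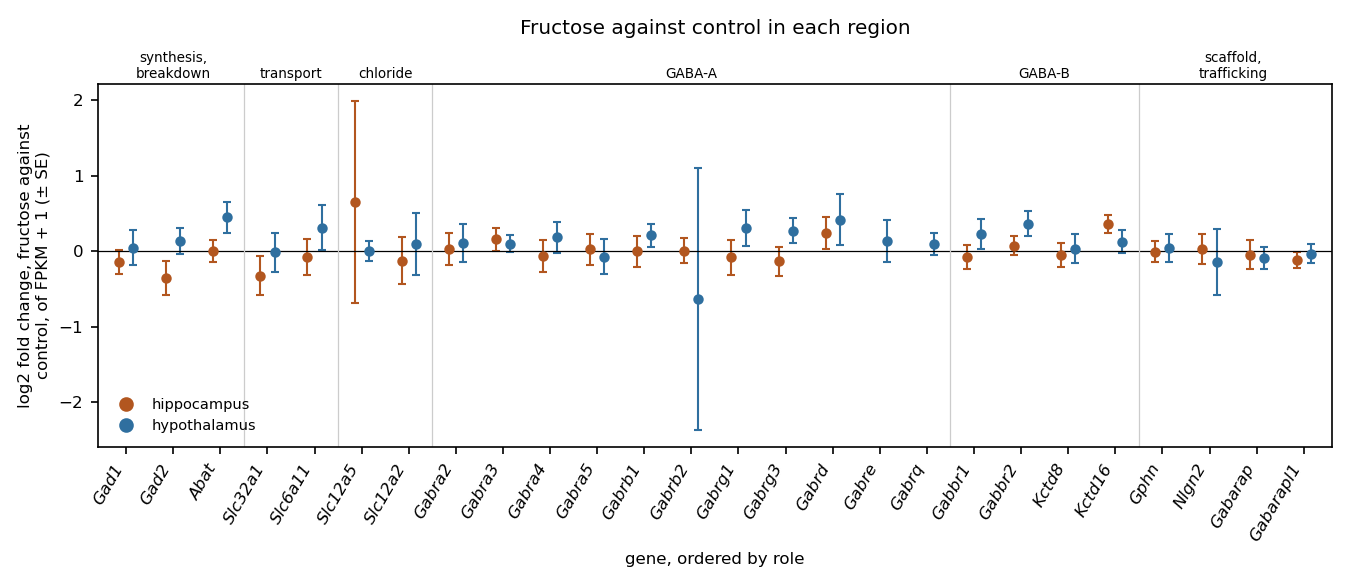
Log2 fold change of FPKM + 1, fructose against control, for each member in hippocampus (brown) and hypothalamus (blue), with the SE of the limma fit as bars; the line is 0. Kctd16 in hippocampus is the value farthest from 0 in units of its SE, and the widest bars are those of Slc12a5 in hippocampus and Gabrb2 in hypothalamus.

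In hypothalamus, with 4 control and 3 fructose libraries, 0 of 26 members passed the adjusted p of 0.05 in limma, where 0.0087% of all 11498 loci did. None had an unadjusted p under 0.05, against 3.14% of all loci, and none had groups without overlap, against 1.75% of loci higher and 1.58% lower after fructose. Of the members 19 were positive and 7 negative, with a median of 0.10, while the median of all loci was 0.006 and 51.5% were positive. By role, all 3 synthesis and breakdown genes and all 4 GABA-B genes were positive, as were 9 of 11 GABA-A subunits, while 3 of 4 scaffold and trafficking genes were negative. These are counts of signs in the fit with all libraries, not of genes that changed. Fructose replicate 2 was the highest library for 10 of 26 members, against 12.9% of all symbols. Control replicate 1 was the lowest for 10, against 18.9%. Positive members numbered 17 without control replicate 1 and 22 without control replicate 2. Without both replicate 1 libraries 15 were positive and 11 negative, with a median of 0.08, where 48.3% of all loci were positive.

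Abat and Gabbr2 had the smallest unadjusted p-values among the members. Abat, the transaminase, read 103, 131, 119 and 114 in controls and 112, 190 and 189 after fructose. Fructose replicates 2 and 3 lay above every control, whereas fructose replicate 1 lay among them, so the groups overlapped. The log2 fold change was 0.45 ± 0.21 (SE), with an unadjusted p of 0.0648 and a limma adjusted p of 1.00. Leaving out fructose replicate 2 gave 0.32 and leaving out fructose replicate 1 gave 0.70, the ends of the range when 1 library was left out. Slc6a11, the astrocyte transporter, read 173, 305, 231 and 272 in controls and 193, 406 and 338 after fructose, at 0.31 ± 0.29 with an unadjusted p of 0.322. Again both replicate 1 libraries were the lowest of their group, and the same 2 omissions gave 0.09 (unadjusted p of 0.783) and 0.62. Astrocyte markers summed to 1350, 1140, 1000 and 1240 in controls and 1200, 1640 and 1530 after fructose, highest in the same 2 fructose libraries as Abat and Slc6a11. In fructose replicate 3 Gfap, at 696 the largest term of that sum, and Gja1, at 199, lay above every control. There Aqp4, Aldh1l1, Slc1a3 and Slc1a2 lay within the range of the controls. Markers of thalamus, a neighbour of the hypothalamus, summed to 37.8, 38.4, 39.8 and 50.7 in controls and 35.8, 77.4 and 42.9 after fructose. The part of either set of markers in these values was not tested.

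Gabbr2 read 63.2, 58.1, 42.4 and 47.8 in controls and 66.3, 75.3 and 61.4 after fructose, at 0.36 ± 0.17 (SE) with an unadjusted p of 0.0639. Fructose replicate 3 lay below control replicate 1. With its second locus added the value was 0.22 ± 0.19 and the unadjusted p 0.268. Gabbr1 read 290, 428, 382 and 397 in controls and 339, 523 and 459 after fructose, at 0.23 ± 0.20 (0.21 ± 0.21 with loci summed), with fructose replicate 1 inside the control range. Kctd16, the member that stood apart in hippocampus, read 2.04, 1.51, 1.99 and 2.31 in controls and 2.02, 2.61 and 2.06 after fructose, at 0.13 ± 0.15, and its groups overlapped. Kctd8 was at 0.03 ± 0.19.

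Over all libraries of hypothalamus, deviations of same-numbered control and fructose libraries correlated at 0.85, 0.49 and 0.46. Over replicates 2 to 4 alone they correlated at 0.27 and 0.036, so a pairing beyond replicate 1 was not shown. The fits that follow are alternatives to the main one. With the replicate number as a block, Abat was at 0.44 (unadjusted p of 0.0181), Slc6a11 at 0.37 (0.0253) and Gabbr2 at 0.32 (0.041), the 3 members under 0.05 in that fit, where 6.6% of all loci were, and the lowest limma adjusted p of a member was 0.605. With loci summed in the same fit Gabbr2 was no longer among them and 2 members were, against 6.74% of all symbols. Without both replicate 1 libraries the log2 fold change was 0.64 for Abat, 0.47 for Slc6a11 and 0.46 for Gabbr2, the same 3 members had an unadjusted p under 0.05, as did 9.37% of all loci, and the lowest adjusted p was 0.378. In that smaller set the groups of 7 members did not overlap (higher for Abat, Slc6a11, Gabbr1, Gabbr2, Gabrb1 and Gabrg3, lower for Slc32a1), where 27.6% of all loci did not. With loci summed in that set the groups of Gabbr2 overlapped, while those of the other members just named still did not. Abat and Slc6a11 were then the 2 members with an unadjusted p under 0.05 in limma, against 9.08% of all symbols.

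Synthesis genes and receptor subunits differed by less than the libraries did. Gad2 read 159, 128, 153 and 151 in controls and 212, 135.5 and 147 after fructose, with fructose replicate 1 above the rest, at 0.13 ± 0.18 (SE). Gad1 was at 0.04 ± 0.23 and Slc32a1 at -0.02 ± 0.26. Gabrd read 1.71, 0.544, 0.763 and 0.837 in controls and 1.15, 3.38 and 0.775 after fructose, and its value of 0.42 ± 0.34 was 0.03 without fructose replicate 2. Gabre was at 0.13 ± 0.28 and Gabrq at 0.09 ± 0.14, so the subunits that mark this region most were not shown to move. The remaining GABA-A values ran from -0.64 for Gabrb2, which became -0.21 ± 0.16 with loci summed, to 0.30 ± 0.24 for Gabrg1. Shares of alpha subunits were 37.8% for Gabra5, 27.3% for Gabra3, 22.1% for Gabra2 and 12.9% for Gabra4 after fructose, with Gabra4 alone over 1 SD from the control share. Chloride transporters stood at 0.00 ± 0.13 for Slc12a5 and 0.09 ± 0.42 for Slc12a2. Gabarap was at -0.09 ± 0.14, Gabarapl1 at -0.04 ± 0.12, Gphn at 0.04 ± 0.19 and Nlgn2 at -0.14 ± 0.43.

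Whether the change with fructose differed between the regions was tested as an interaction over 9931 symbols. None of 24 members passed an adjusted p of 0.05 in limma, where 0% of all symbols did, and none had an unadjusted p under 0.05, against 2.31% of all. The value, hypothalamus minus hippocampus, was positive for 17 members and negative for 7, with a median of 0.18 against 0.02 over all symbols. That median was 0.07 without hippocampus control replicate 3 and 0.08 without hippocampus fructose replicate 1 (15 positive and 9 negative in each), 0.10 without hypothalamus control replicate 3, 0.12 without hippocampus fructose replicate 2, 0.27 without hypothalamus fructose replicate 3 and 0.39 with array weights (21 and 3). Abat was at 0.45 ± 0.26 (unadjusted p of 0.106), Gad2 at 0.49 ± 0.31 (0.129) and Gabrg3 at 0.41 ± 0.25 (0.127). For Kctd16 the value was -0.23 ± 0.18 (0.227), so its separation in hippocampus and its overlap in hypothalamus were not shown to differ. With limma's array weights, which give less weight to libraries far from their group, Abat reached 0.79 with an adjusted p of 0.0291, the lowest in a range up to 1.00 over the alternatives tried, in a fit where 18.4% of all symbols had an unadjusted p under 0.05.

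Ratios of 2 members within a library do not depend on its scale. The log2 ratios of 4 pairs (of FPKM + 1) were compared by exact two-sided permutation in each region, 8 tests in all, where the smallest p possible was 0.0286 in hippocampus and 0.0571 in hypothalamus. Gad1 over Gad2 in hippocampus was 0.65 ± 0.27 in controls and 0.87 ± 0.08 after fructose (SD, n = 4 each), with an exact p of 0.143, the lowest of the 8, and an adjusted p of 0.916. Gabbr2 over Gabbr1 went from -2.58 ± 0.20 to -2.43 ± 0.11 in hippocampus and from -2.80 ± 0.43 to -2.67 ± 0.29 in hypothalamus. Gabra5 over Gabra2 differed by -0.01 and -0.18 in hippocampus and hypothalamus. Slc12a5 over Slc12a2, the balance of chloride export and import, differed by 0.78 in hippocampus at the higher loci and by 0.15 with loci summed, and by -0.10 in hypothalamus. With these smallest p-values no ratio could reach 0.05 after adjustment over the 8 tests, so the ratios are given as values only.

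Genes of the pathway outside the list gave the same kind of count. They comprised further GABA-A subunits, enzymes and transporters of GABA and glutamine, effectors of GABA-B receptors and proteins of the inhibitory postsynapse. In hippocampus 60 of 66 were tested and 0 passed in either direction, 0 had an unadjusted p under 0.05, and 26 were positive and 34 negative with a median of -0.03. In hypothalamus 60 of 68 were tested and 0 passed, 2 had an unadjusted p under 0.05 (3.14% of all loci did), and 37 were positive and 23 negative with a median of 0.03. Those 2 were Slc6a13, a GABA transporter of meningeal cells, at 31.4 ± 8.78 FPKM in controls and 12.2 ± 9.88 after fructose, and Slc38a5, a glutamine transporter, at 6.35 ± 1.12 and 4.41 ± 0.791 (SD, n = 4 and 3). Their log2 fold changes were -1.61 ± 0.57 and -0.44 ± 0.17 (SE), with limma adjusted p-values of 1.00. Meningeal markers, a list that includes Slc6a13, summed to 199 to 362 in hypothalamus controls and 47.0 to 206 after fructose; in hippocampus, where Slc6a13 was at 1.35 ± 0.67, they summed to 44.6 to 444 and 182 to 674. Their part was not tested. Groups of 3 of the 60 genes lay higher after fructose without overlap in hypothalamus, where 1.75% of all loci did. Slc38a1, a glutamine transporter with 2 loci, was at 36.3 ± 1.78 in controls and 43.2 ± 3 after fructose, at 0.24 ± 0.11 (unadjusted p of 0.0563). Ajap1, a partner protein of the GABA-B receptor named after its value was seen, was at 0.23 ± 0.12 (0.099). Aldh5a1, which completes GABA breakdown after Abat, was at 38.7 ± 1.17 in hypothalamus controls and 46.8 ± 6.59 after fructose, without overlap, at 0.26 ± 0.13 (unadjusted p of 0.0745). In hippocampus it was at -0.19 ± 0.12.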

How the data were processed

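RNA was enriched for poly-A transcripts and sequenced on an Illumina HiSeq instrument, per the labels' protocols. The authors deposited FPKM per locus with a status flag; the submitters' processing notes name Bowtie2, Cuffdiff, TopHat2, Cufflinks, Bowtie, TopHat and build rn5, with no versions. Without counts, no count model could be used and no interval for depth can be given. Ratios of low FPKM values between libraries fell in steps for replicates 2 to 4, at 0.678 to 1.07 times hippocampus control replicate 2 and 0.908 to 1.03 times hypothalamus control replicate 2, but not for replicate 1.

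The limma package (3.58.1, R 4.3.3) was run on log2(FPKM + 1) for loci whose mean reached 1 FPKM (moderated test with a trend, group as the only term, Benjamini-Hochberg over all tested loci); fold changes on that scale understate low genes. Hypothalamus had 4 against 3 libraries. The interaction took the highest locus of each symbol in each table. The fits within a region were checked on simulated data with independent noise in each library. The planted changes were larger than those of the members. That check does not cover the shift of the replicate 1 libraries, small changes or the interaction. Ratios used exact permutation in scipy 1.17.1 (Kctd16 over Kctd12 could not be computed, since Kctd12 was not analysed here), and figures matplotlib 3.10.9. All 27 members are named; of the other pathway genes, those with the smallest unadjusted p could be named, up to 4 in a comparison. Members, lists and markers were chosen with earlier results of these data known.

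The meaning of the replicate numbers in the labels is not given in the sources used here. For deviations of same-numbered libraries, hippocampus gave correlations of 0.89, 0.21, 0.48 and 0.41, while hypothalamus gave 0.85, 0.49 and 0.46. All passed the limit of 0.1 set for pairing. That limit cannot decide the question, because replicate 1 lay apart in both groups and this alone raises the values. Over replicates 2 to 4 alone, hippocampus gave -0.23, 0.4 and 0.088, while hypothalamus gave 0.27 and 0.036. Pairing beyond replicate 1 was thus not shown, and the replicate block served only as an alternative fit. Alternatives covered the pseudocount, the filter, centring, the trend, array weights, summed loci, the replicate block and left-out libraries; summed loci combined with the block or without replicate 1, and ratios of summed loci, were added after seeing the data.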

Additional observations from a re-analysis of the deposited data

Results flagged for a closer look

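The 4 library values of a member within a group were checked by Dixon's criterion. In 6 of 74 such groups 1 value lay far from the other 3, where chance gives about 1 in 20. In hippocampus controls, Gabrd was at 17.3 FPKM in replicate 1 with the others at 13.4 to 13.6, and Gphn at 26.5 in replicate 1 with the others at 33.1 to 34.2. In hippocampus after fructose, Gabra3 was at 23.9 in replicate 4 with the others at 15.8 to 16.5. In hypothalamus controls, Gabra2 was at 28.6 in replicate 1 with the others at 16.2 to 17.1, Gabre at 5.77 in replicate 1 with the others at 9.97 to 10.8, and Gabra5 at 28.7 in replicate 4 with the others at 39.9 to 41.1.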

How the results depend on the processing

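The count of members past the adjusted p of 0.05 was 0 in hippocampus and 0 in hypothalamus under every alternative run. For the difference between regions it was also 0 except with array weights, where it was 1, Abat, and 97 of all symbols passed higher and 239 lower; the cause was not tested. With the replicate block it was 0 in all 3 comparisons. The block moved the members under an unadjusted p of 0.05 from 0 to 3 in hypothalamus, while all loci went from 3.14% to 6.6%, and left 1 in hippocampus, while all loci went from 0.808% to 1.78%. The count of members whose controls did not overlap between regions was 15, and 15 to 20 over the alternatives, with 15 to 19 when 1 library was left out; without both replicate 1 libraries, which gave 20, all symbols went from 3688 higher and 1911 lower to 4520 and 3020. No ratio could pass with these group sizes and 8 tests. Over the alternatives, log2 fold changes of 9 of 24 members kept their sign in hippocampus, of 12 of 26 in hypothalamus and of 11 of 24 for the difference, and no sign changed where the unadjusted p was under 0.05 in either fit. Array weights put Gad2 at -0.65 and Gad1 at -0.35 in hippocampus, with unadjusted p-values of 0.00904 and 0.0472, and Kctd16 at 0.23 (0.0655), and raised the members under 0.05 in hypothalamus to 7, where 18.3% of all loci were. A minimum mean FPKM of 5 removed Kctd16. Depth limits low members, Gabre and Gabrq in hippocampus and Gabrd in hypothalamus above all, but its size is unknown.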
